A study of Homo sapiens with 3 samples.

Results

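The 40 genes described here serve ribosome biogenesis and transcription by RNA polymerase I. They were chosen by symbol, and all 40 are among the 27574 genes counted in 3 RNA sequencing libraries of H82R cells, named replicates 1, 2 and 3. The cells derive from H82, a long-established line of human small cell lung cancer. Every library is labelled as treated with etoposide, which traps topoisomerase II on DNA, plus cisplatin, which crosslinks DNA. No untreated or parental group is named, so levels and their spread can be given but no effect of the drugs. Separate cultures are not mentioned either, and p-values therefore reflect the spread of these 3 libraries, which could be technical alone.

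Ribosome production starts in the nucleolus, where RNA polymerase I copies the repeated rRNA genes into a long precursor. Small nucleolar RNA particles modify this precursor, large assemblies of processing factors fold and cut it, and export factors deliver the 2 subunits to the cytoplasm. Proliferating cells need much of this machinery, and the transcription factor MYC is known to drive many of its genes.

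Replicates 1, 2 and 3 held 25013265, 42610181 and 23868201 counts. All 8 neuroendocrine lung cancer markers looked at had at least 10 counts in every library, which is called detected here, as had 14612 of all 27574 genes. Of the fibroblast, endothelial and leukocyte markers, 2 of 6, 2 of 5 and 3 of 6 were detected. Summed over each list, those 3 reached 3.30 to 5.64, 1.17 to 1.88 and 30.8 to 40.6 CPM (counts scaled to a common library size), most of the last in CD68, which shares 97.6% of its coding bases with another annotated gene. None of the markers of these 3 lists was at 0 in all libraries. The leukocyte gene PTPRC had 6, 10 and 7 counts in replicates 1, 2 and 3. In the test against the median detected gene given below, 6 of the 8 neuroendocrine markers lay above it, 1 below, and 1 was not distinguished.

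The 40 genes were expressed high as a group. All 40 were detected, against 14612 of all 27574 genes. In limma's two-sided one-sample test on CPM per kb of exon (Benjamini-Hochberg adjustment over 13539 genes), 37 lay above the median detected gene and 3 below it. Of all tested genes, 45.3% lay above and 45.1% below. The median of the 40 was 2.21 on the log2 scale above the median gene (SD over the 3 libraries 0.12), and the median over all tested genes is 0 by construction. Together the 40 genes took 0.764%, 0.710% and 0.792% of the counts in replicates 1, 2 and 3. Without NPM1 and NCL, which lead the group, the other members took 0.499%, 0.460% and 0.529%. The choice of length moved the calls of few members: with coding length in place of exon length, 34 lay above and 4 below, and the median was 1.61.

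**Figure D1:**
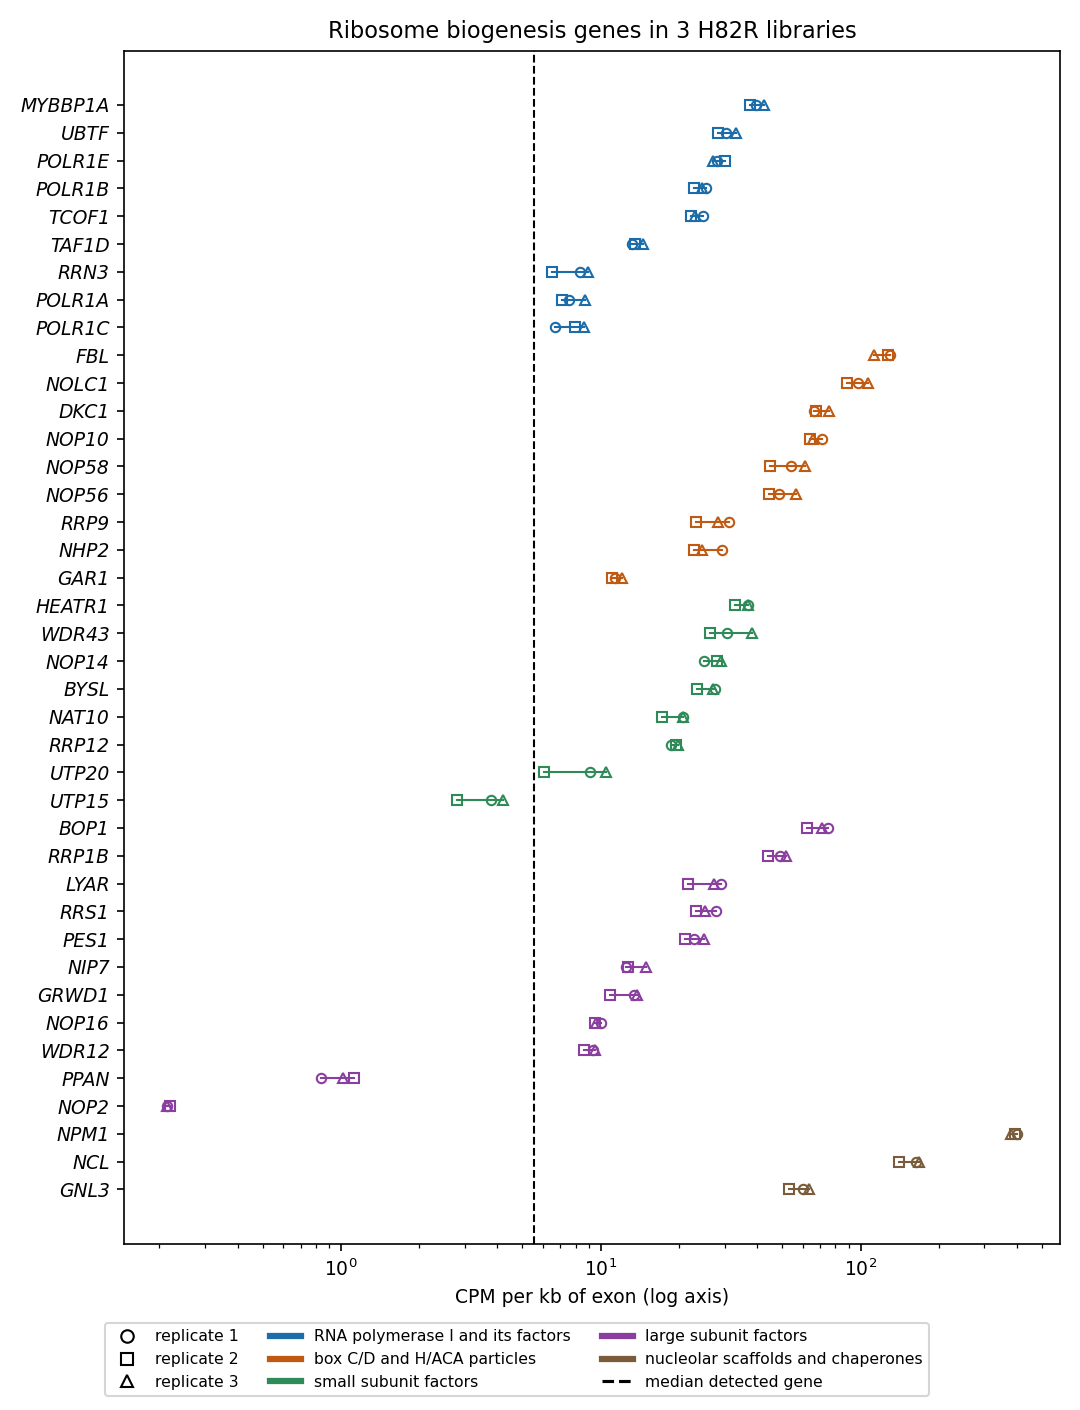
CPM per kb of exon (log axis) of each of the 40 genes in the 3 H82R libraries, 1 symbol per library, coloured by role, with a line from the lowest to the highest library and a dashed line at the median detected gene. NPM1 lies farthest to the right at 380 to 401 and NOP2 farthest to the left at 0.214 to 0.220, and UTP15, PPAN and NOP2 lie left of the dashed line.

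RNA polymerase I and the factors that work with it all lay above the median gene, 9 of 9, but in separate tiers per kb of exon. POLR1A, the largest catalytic subunit, stood at 7.53, 7.10 and 8.73 CPM per kb in replicates 1, 2 and 3. POLR1B, the second catalytic subunit, stood at 25.4, 23.0 and 24.7. In each library POLR1B was therefore 3.38, 3.23 and 2.82 times POLR1A per kb.

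POLR1C, a subunit shared with RNA polymerase III, reached 6.69, 7.96 and 8.62 CPM per kb. POLR1E, a subunit that helps initiation and elongation, reached 28.03, 30.1 and 27.0. The ranges of POLR1A and POLR1C overlapped per kb of exon, and those of POLR1B and POLR1E lay above both. Log2 distances from the median gene with coding length were 0.15 for POLR1A, 0.83 for POLR1C, 1.24 for POLR1B and 1.28 for POLR1E. The ratio of POLR1E to POLR1C was 3.67 as a geometric mean per kb of exon but 1.37 per kb of coding sequence, where POLR1C has 5550 bases of annotated exon and 1316 of coding sequence and POLR1E has 2512 and 1599.

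Among the initiation factors, UBTF, which bends and opens rDNA, averaged 30.6 ± 2.46 CPM per kb (SD, n = 3), with 2.46 ± 0.07 (SE) above the median gene on the log2 scale (limma adjusted p = 1.1e-08). RRN3, which docks the polymerase at the promoter, had 8.29, 6.48 and 8.91 CPM per kb and lay 0.50 ± 0.10 above (limma adjusted p = 0.0020). UBTF exceeded RRN3 by 3.65, 4.36 and 3.72 times. TAF1D, a subunit of the promoter selectivity factor, had 13.2, 13.6 and 14.6 CPM per kb. The calls of RRN3 and POLR1A (0.48 ± 0.08, limma adjusted p = 3.9e-04) were lost with the longest transcript as length (limma adjusted p = 0.12 and 0.20) and with coding length (0.14 and 0.11). TCOF1, which encodes the nucleolar phosphoprotein treacle, ranged from 22.2 to 24.9 CPM per kb, and MYBBP1A, a nucleolar regulator that binds MYB, was the highest of this group per kb of exon at 37.6 to 42.4. With coding length the distance from the median gene was larger for TAF1D (2.56, against 1.31 with exon length) and UBTF (2.29) than for MYBBP1A (1.75, against 2.84 with exon length).

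Of 15 partners of the polymerase that are not among the 40, 10 lay above the median gene, 4 below it and 1 was not distinguished from it. The shared subunit genes POLR2K (32.3 ± 3.12 CPM per kb) and POLR2E (30.6 ± 2.62) were highest. POLR1H, listed under its older name ZNRD1, POLR1G, listed as CD3EAP, and POLR2F lay below the median gene, at 3.34, 1.495 and 3.33 CPM per kb. PTRF, which also builds caveolae, was the lowest at 0.338 ± 0.117. The median distance was 0.69 for these 15 partners, against 2.07 for the 9 members with a role at RNA polymerase I.

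The small nucleolar RNA particles were the role group with the highest median after the scaffolds, at 3.25 on the log2 scale, and 9 of 9 members lay above the median gene. FBL, the methyltransferase of box C/D particles, stood at 130, 128 and 113 CPM per kb in replicates 1, 2 and 3, more than 98.6% of the tested genes. Its core partners NOP56 and NOP58 had 48.4, 44.3 and 56.7, and 53.8, 44.8 and 61.0 CPM per kb. NOP56 was 0.900, 0.989 and 0.930 times NOP58, so the RNAs of these related scaffold proteins stood at close to equal levels per kb of exon in every library. Per kb of coding sequence the mean ratio was 1.32. RRP9, which joins only the U3 box C/D particle, was lower at 23.2 to 31.1 CPM per kb.

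In the box H/ACA particles, which turn uridine into pseudouridine, the 4 core genes were unequal. DKC1, the pseudouridine synthase, had 66.0, 67.6 and 75.8 CPM per kb, and NOP10, its short partner, had 71.1, 63.9 and 65.9. The ranges of DKC1 and NOP10 overlapped. NHP2 had 29.4, 22.9 and 24.6, and GAR1 had 11.4, 11.1 and 12.1, the lowest of this role group per kb of exon. With coding length RRP9 (0.73) lay nearer to the median gene than GAR1 (0.98). DKC1 exceeded GAR1 by 5.82, 6.12 and 6.29 times per kb, and NHP2 exceeded GAR1 by 2.59, 2.07 and 2.04 times. In the annotation 27.4% of the exon bases of NHP2 also belong to RMND5B on the opposite strand, and without a stated strand setting the reads of both genes cannot be told apart there. On plain CPM without length GAR1 lay below the median gene (-0.30, limma adjusted p = 0.013). NOLC1, a chaperone of both particle classes, was abundant at 97.9 ± 9.12 CPM per kb (SD, n = 3).

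Genes for small subunit factors lay above the median gene in 7 of 8 cases. HEATR1, which helps to start rRNA transcription and processing, had the highest mean per kb of exon, with 36.9, 32.7 and 37.1 CPM, and LGALS8 overlaps 23.2% of its exon bases on the opposite strand. WDR43 had 30.6, 26.4 and 38.4, and with coding length it lay farther above the median gene (1.80) than HEATR1 (1.45, against 2.68 with exon length). In CPM per kb of exon, the assembly factors NOP14 and BYSL ranged from 25.1 to 29.1 and from 23.4 to 27.4. NAT10, an RNA acetyltransferase, and RRP12, an export factor, averaged 19.5 ± 2.05 and 19.3 ± 0.668.

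At the low end stood UTP20 and UTP15. UTP20 had 9.07, 6.03 and 10.5 CPM per kb and lay 0.58 ± 0.14 above the median gene (limma adjusted p = 0.0033), but the call was lost with the longest transcript as length (0.28, limma adjusted p = 0.082), and per kb of coding sequence UTP20 lay below the median gene (-0.88, limma adjusted p = 3.8e-04). UTP15 had 3.78, 2.81 and 4.21 CPM per kb and stood at -0.64 ± 0.12 from the median gene (limma adjusted p = 0.0012). UTP15 and HEATR1 belong to the same early subcomplex, and HEATR1 exceeded UTP15 by 9.75, 11.7 and 8.80 times per kb of exon, and by 3.84 times as a mean per kb of coding sequence. With every gene that had a count kept in the test, UTP15 lay above the then lower median gene by 0.28.

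Large subunit factors showed the widest range, with 9 of 11 above the median gene and 2 below. BOP1, on chromosome 8 from 144262102 to 144291370, was the highest per kb of exon, with 75.1, 62.4 and 71.0 CPM. With coding length RRP1B (2.73) lay slightly above BOP1 (2.65, against 3.64 with exon length), and NIP7 reached 2.53, against 1.27. BOP1 forms a complex with PES1 (22.9, 21.1 and 24.9 CPM per kb) and WDR12 (9.32, 8.65 and 9.48). PES1 was 0.305, 0.338 and 0.350 times BOP1, and WDR12 was 0.406, 0.410 and 0.381 times PES1. Per kb of coding sequence PES1 was 0.515 times BOP1, the same order, whereas WDR12 was 1.11 times PES1. RRP1B averaged 48.2 ± 3.74, and RRS1, LYAR, NIP7, GRWD1 and NOP16 lay between 9.53 and 28.99 in every library.

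NOP2 and PPAN stood far below the other 38 genes. NOP2, an rRNA methyltransferase gene, had 25, 44 and 24 counts in replicates 1, 2 and 3, or 0.215, 0.220 and 0.214 CPM per kb, and stood at -4.59 ± 0.19 from the median gene on the log2 scale (limma adjusted p = 8.5e-08). PPAN, whose product helps to process the large subunit rRNA, had 54, 124 and 63 counts, or 0.842, 1.12 and 1.02 CPM per kb, and stood at -2.46 ± 0.17 (limma adjusted p = 1.6e-06). The next lowest gene, UTP15, was at least 2.81 CPM per kb of exon in every library.

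Both genes share nearly all of their coding sequence with another annotated gene on the same strand. On GRCh38, NOP2 lies on chromosome 12 from 6556863 to 6568691. Of its coding bases, 91.9% are also exons of AC006064.6, a gene not analysed here under that name. PPAN lies on chromosome 19, and 94.3% of its coding bases are also exons of the readthrough gene PPAN-P2RY11, which is listed with 0 counts in all 3 libraries. The other member with more than 1% of coding bases shared on the same strand is RRS1, at 3.84%. Overlap with genes on the opposite strand reached 20.1% of coding bases in NHP2, 17.5% in NOP16 and 11% in NOP14, and the strand setting is not given. Of the 180 tested biogenesis genes, members and others together, 5 shared at least 50% of their coding bases on the same strand, and all 5 lay below the median gene. These 5 include NOP2 and PPAN themselves, and sharing was looked at after their low levels were seen. Across all tested genes with that much sharing, 73.5% of 461 lay below, against 45.1% of all tested genes. How the authors counted reads that fit more than 1 gene is not given, and the part of this in the low values was not tested.

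**Figure D2:**
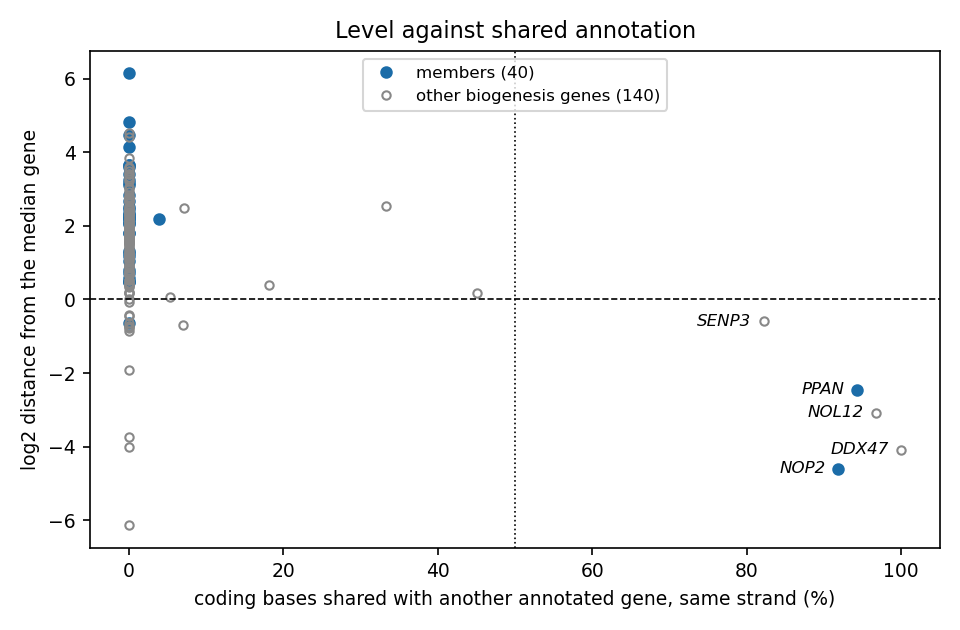
Percent of coding bases shared with another annotated gene on the same strand (horizontal) against the log2 distance from the median gene (vertical), for the 40 members (filled) and 140 other biogenesis genes (open). The 5 labelled genes right of the dotted line at 50% (NOP2, PPAN, and the non-members SENP3, NOL12 and DDX47) all lie below 0.

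The nucleolar scaffold and chaperone genes were the most abundant. NPM1, which encodes nucleophosmin, had 401, 395 and 380 CPM per kb in replicates 1, 2 and 3 and lay above 99.7% of tested genes. NCL, which encodes nucleolin, had 163, 141 and 167, and GNL3, which encodes nucleostemin, had 60.3, 53.0 and 63.5. NPM1 was 2.46, 2.80 and 2.27 times NCL. The annotation holds 45 pseudogenes named after NPM1, more than for any other member, and how reads shared with them were counted is not given.

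The other genes of the pathway were high as well. Of 141 genes in 5 further lists, 140 were detected, against 14612 of all 27574 genes, and TAF9 was listed at 0 counts in every library. Of the 140, 118 lay above the median gene, 15 below, and 7 were not distinguished from it. Their median distance was 1.60, against 2.21 for the 40 genes. In the small subunit processome list 40 of 50 genes lay above and 6 below, led by FCF1 (128 ± 2.47 CPM per kb) and NOB1 (59.3 ± 3.78), with PWP2 the lowest detected (0.0704 ± 0.0121). In large subunit assembly 48 of 51 lay above and 2 below, led by the helicase gene DDX21 (118 ± 8.04) and NOC2L (79.3 ± 3.14), with NOL12 the lowest (0.655 ± 0.158). Like NOP2 and PPAN, NOL12 shares at least 50% of its coding bases with another annotated gene.

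For the RNA exosome, which trims rRNA ends, 12 of 14 genes lay above and 2 below, with EXOSC4 (30.9 ± 1.79 CPM per kb) and EXOSC10 (27.9 ± 1.05) highest and EXOSC7 (3.44 ± 0.263) lowest. Among snoRNA particle partners 8 of 11 lay above, with the chaperone ATPase gene RUVBL2 (66.6 ± 5.56) and SNU13 (31.7 ± 1.45) highest and ZNHIT3 (3.06 ± 0.188) the lowest detected. The median distances of neighbouring machineries were 5.10 for 78 cytosolic ribosomal protein genes, 1.998 for 7 RNA polymerase II subunits, 1.36 for 20 mitochondrial ribosome assembly genes and 0.65 for 11 RNA polymerase III subunits. In these 4 lists 73, 6, 16 and 8 genes lay above the median gene. Differences between lists were not tested.

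**Figure D3:**
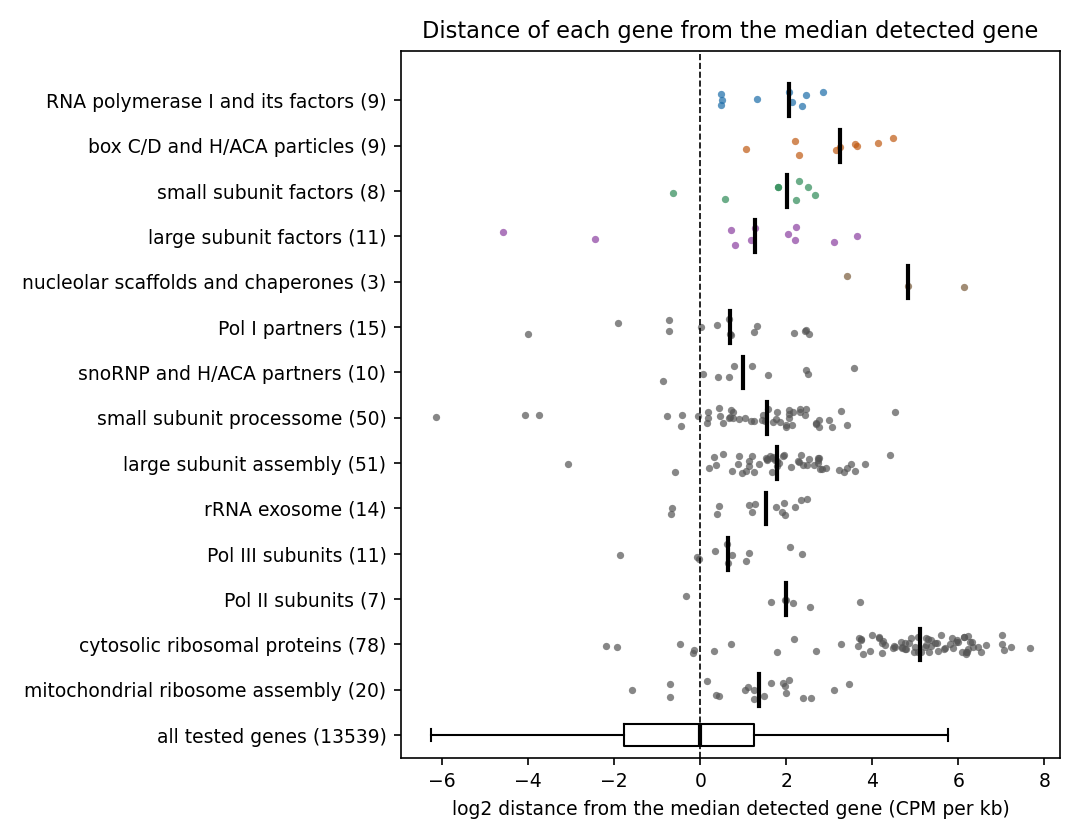
Log2 distance from the median detected gene (CPM per kb of exon) of each gene in the 5 role groups of the 40 members (coloured) and in 9 other lists (grey), with the number tested in parentheses and a bar at each median. The box shows the quartiles of all 13539 tested genes, its whiskers reach the farthest genes within 1.5 box lengths, and genes beyond them are not drawn. The medians of the particle and scaffold groups lie to the right of those of the other biogenesis lists, whose genes they overlap, and cytosolic ribosomal proteins have the highest median.

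The 40 genes tended to be low in the same library. The spread between libraries exceeded counting error for 36 of 40 in a chi-square test of homogeneity (Benjamini-Hochberg adjustment over 14612 detected genes), against 68.7% of all detected genes. Among detected non-members whose mean count fell within the range of the members other than NOP2 and PPAN, 83.3% of 7704 passed. The 4 members that did not pass were GAR1, NOP16, PPAN and NOP2. The median SD of log2 CPM was 0.13 for the 40 genes, against 0.17 for all detected genes. These SDs are not matched for count: the median mean count was 3094 for the 40 genes and 767 for all detected genes.

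Replicate 2 was the lowest library for 29 of the 40 genes, against 36.4% of detected genes, and replicate 3 the highest for 25, against 32.5%. The median deviation from each gene's own mean was 0.03, -0.12 and 0.09 on the log2 scale in replicates 1, 2 and 3. Over all detected genes it stayed within 0.01 of 0, where the scaling of the libraries itself tends to hold it. Replicate 2 was also the deepest library. The summed level of the 141 other biogenesis genes was also lowest there, at 13758, 12854 and 14357 CPM in replicates 1, 2 and 3. So were those of 7 RNA polymerase II subunits (1152, 981 and 1130) and 20 mitochondrial ribosome assembly genes (1226, 1093 and 1247). The low replicate 2 was thus not particular to the 40 genes. Cytosolic ribosomal protein genes (57885, 62129 and 50238) and RNA polymerase III subunits (610, 622 and 612) were instead highest in replicate 2. The part of depth in these shifts was not tested. Without replicate 2, 24 of the 40 members and 5708 genes still passed the homogeneity test between replicates 1 and 3. The number of genes tested in that setting is not given here, so the shares cannot be compared.

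The 5 members with the largest SD of log2 CPM all had their lowest level in replicate 2 and their highest in replicate 3. UTP20 deviated most (SD 0.41), with 90.9, 60.5 and 105 CPM, and UTP15 followed (SD 0.30), with 23.9, 17.7 and 26.6. WDR43 (SD 0.27), RRN3 (0.24) and NOP58 (0.22) came next. NPM1, POLR1C, POLR1E, NOP14, RRP12, FBL, PPAN and NOP2 had a level above their own mean in replicate 2.

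**Figure D4:**
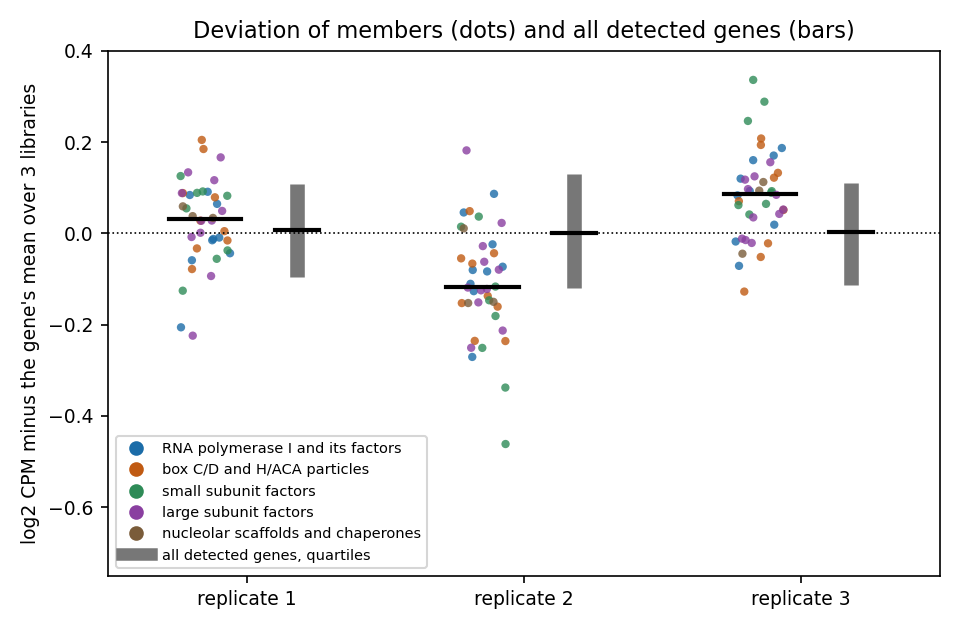
Log2 CPM minus the gene's mean over the 3 libraries, for each of the 40 genes in replicates 1, 2 and 3 (dots coloured by role, bar at the median), beside the quartiles and median of all detected genes (grey). The dots of replicate 2 lie mostly below 0, with a median of -0.12, and those of replicate 3 mostly above it, with a median of 0.09.

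Several members share features of sequence and structure. Small nucleolar RNA genes were counted only where the symbol begins with SNOR, which leaves out some, such as RF00569 in GNL3 and RF00575 in NOP58. In the annotation 8 of the 40 genes (20%) contain such SNOR genes on their own strand, against 0.718% of 19907 protein-coding genes. TAF1D holds 8, NOP56 5, and GNL3, NCL, NOP58 and WDR43 3 each, with 2 each in DKC1 and PPAN, 29 in all. These RNAs guide the modifications that the box C/D and H/ACA proteins carry out, and their own levels were not analysed here.

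Promoter windows from RefSeq (GRCh38.p14, 250 bases before to 50 after the start) were matched for 32 of the 40 genes. No window was at hand for POLR1E, TCOF1, NOP58, NOLC1, RRP12, BOP1, RRP1B and RRS1. The E-box CACGTG, a palindrome known to be bound by MYC with its partner MAX and by other factors, stood in 11 of the 32 windows (34.4%), against 24.2% of 124 windows of the other biogenesis genes and 10.1% of 10469 windows of tested genes. Of the 12 E-boxes in the 32 windows, 11 began within 50 bases of the start, against 37.6% of the 1195 in windows of tested genes. The ETS core CCGGAAG, searched on both strands, stood in 34.4% of the 32 windows, 41.1% of the other biogenesis windows and 18.1% of those of tested genes. These are matches of letters, no binding was measured, and the shares were not tested.

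The 8 E-boxes that began within 15 bases of the start are shown to compare their surroundings. Each line gives 30 bases of the gene's own strand, 5′ to 3′, with the E-box in capitals.
NAT10, chr11:34105602-34105631, plus strand: aatgcgcttgcgCACGTGctgtctaccagt
NOP10, chr15:34343130-34343159, minus strand: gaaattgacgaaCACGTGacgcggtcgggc
UTP20, chr12:101280083-101280112, plus strand: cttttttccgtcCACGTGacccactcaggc
RRP9, chr3:51941892-51941921, minus strand: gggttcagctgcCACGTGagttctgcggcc
WDR43, chr2:28894658-28894687, plus strand: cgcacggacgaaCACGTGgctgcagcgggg
FBL, chr19:39846356-39846385, minus strand: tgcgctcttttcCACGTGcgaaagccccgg
PES1, chr22:30591880-30591909, minus strand: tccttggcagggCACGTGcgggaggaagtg
NOP14, chr4:2963374-2963403, minus strand: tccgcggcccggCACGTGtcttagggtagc
The first 4 begin 15, 11, 10 and 5 bases before the RefSeq start and the others 3, 6, 13 and 15 bases after it. The annotated gene models behind the levels can begin elsewhere, as for NAT10 (34105602), NOP14 (2963385) and PES1 (30607083). The sides given here hold for the RefSeq start only. The levels of these 8 genes ran from UTP20, at 6.03 to 10.5 CPM per kb, to FBL, at 113 to 130; genes with an E-box at the start differed widely in level.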

How the data were processed

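TRIzol extracts of total RNA were sequenced on Illumina libraries, per the labels' protocols. The authors deposited raw read counts per gene symbol, 1 column for each library. The submitters' processing notes name STAR 2.6.1b and hg38 without saying how they were used. No source used here states the counting program, its annotation, its strand setting or its treatment of reads shared by genes. Of 27587 names, 13 had become dates and were left out (0.0665% to 0.0736% of counts).

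Counts were scaled by TMM (edgeR 4.0.16, factors 0.993 to 1.00). Genes were called detected from 10 counts upwards in all 3 libraries. CPM were divided by the joined exon length in GENCODE release 29 (GRCh38, which corresponds to hg38). Of 27574 names, 19590 matched directly, 497 through an older RefSeq symbol, and 7487 did not match. The 13539 detected genes with a length entered limma-trend (version 3.58.1 in R 4.3.3; prior count 2; threshold 0.05), which tested log2 CPM per kb minus the median of the same library, since edgeR's quasi-likelihood test needs a contrast that 1 group does not give. Spread was tested with a chi-square test against effective library sizes. Ratios were not tested. Scripts were tested on simulated data. A count of 0 would allow 0.121, 0.0702 and 0.125 CPM in replicates 1, 2 and 3 (3 counts, counting error only).

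Members and lists were chosen with earlier results of these data known. Full values are given for the highest and lowest member of each role, the polymerase subunits, the fixed pairs and the 5 most variable members, and for the 2 highest and the lowest gene of each other biogenesis list.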

Additional observations from a re-analysis of the deposited data

How the results depend on the processing

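The 37 members above the median gene were 37 without any 1 replicate, with a prior count of 0.5, library totals unscaled, size factors from DESeq2 1.42.0, a filter of 1 CPM, DESeq2's Wald test, limma-voom and protein-coding genes only, and ranged from 27 to 38 over all alternatives. With the upper quartile as reference point 27 members lay above and 9 below, 2911 genes lay above and 9614 below, 77 other biogenesis genes lay above, and the median distance of members was 0.95, as the point itself is higher. That median was 2.01 with a filter of 1 CPM, 3.13 with any gene that had a count, 1.84 on plain CPM and 1.61 with coding length. Against the upper quartile POLR1A (-0.78), POLR1C (-0.78), RRN3 (-0.76), UTP20 (-0.68), WDR12 (-0.54) and NOP16 (-0.45) lay below, while GAR1 (-0.21) and GRWD1 (-0.072) changed sign without passing the test. UTP15 lay above the median gene at 0.28 with any gene that had a count, and GAR1 (-0.30) on plain CPM and UTP20 (-0.88) with coding length lay below it. NOP16 (-0.052) on plain CPM and RRN3 (-0.18) with coding length changed sign and were no longer distinguished from it. Coding length, and leaving out genes that share at least 50% of coding bases (1 member below), were chosen after seeing the data. Leaving out 1 replicate left 5708 to 7888 genes past the homogeneity test, the lowest without replicate 2, and 24 to 32 members. Replicate 2 was the deepest library, and the part of depth in that lowest number was not tested. Length is the choice that moved ratios most: 20 of 60 recomputed ratios moved beyond their spread, all with another length. The ratios without 1 replicate, also among the 60, could not move beyond it, as they are means of the same values. Most ratios recomputed with another length moved. No paired analysis was possible because all libraries form 1 group. Levels under about 1 CPM per kb, such as those of NOP2, rest on few counts.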
